A study of Mus musculus with 19 samples.

Results

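The 8 genes described here encode the centre of the PI3K, TSC and mTOR pathway: Tsc1, Tsc2, Rheb, Mtor, Rptor, Rictor, Akt1 and Rps6kb1. They were taken by gene symbol from RNA-seq and ribosome profiling count tables of 20436 genes, and 8 of 8 passed the filter on low counts in RNA, in ribosome-protected fragments (RPFs) and in the model that joins both. RPFs are the stretches of mRNA that ribosomes shield from RNase, so their number per gene is a proxy for how many ribosomes sit on its coding sequence. Acute hippocampal slices of wild-type male mice, 28 to 42 days old per the labels, were incubated for 5 min either in artificial cerebrospinal fluid (ACSF, the basal group) or in ACSF with 100 µM dihydroxyphenylglycine (DHPG). DHPG is an agonist of group 1 metabotropic glutamate receptors (mGluR1/5) that induces long-term depression at hippocampal synapses. Slices of both groups were then placed in 100 µg/ml cycloheximide, which arrests elongating ribosomes, and frozen. Each pool held slices of 6 mice. For its later replicates the paper describes separate pools for each genotype and condition. Whether basal and DHPG slices of one replicate number here shared mice is not stated. The replicates used here were made from slices in which CA3 had been left in place. RNA-seq covered 4 basal and 5 DHPG libraries and ribosome profiling 5 basal and 5 DHPG libraries, with RNA and RPFs of a replicate prepared from one lysate.

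AKT kinases act downstream of PI3K and phosphorylate TSC2, which together with TSC1 forms a GTPase-activating complex for Rheb. GTP-bound Rheb activates mTOR in complex 1 (mTORC1, marked by Raptor, the product of Rptor), which phosphorylates S6 kinase 1 (Rps6kb1) and the 4E-BP proteins and so promotes translation, above all of mRNAs that begin with a 5′ terminal oligopyrimidine (5′ TOP) tract. The same kinase in complex 2 (mTORC2, marked by Rictor) phosphorylates AKT, and in hippocampus both complexes have been studied for their part in mGluR-dependent plasticity.

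In mm10, Tsc1 lies at chr2:28641228-28691167 on the plus strand and encodes 1161 residues, and Tsc2 lies at chr17:24595816-24632630 on the minus strand and encodes 1808. Rheb, at chr5:24802823-24842624 on the minus strand, is the shortest member with 184 residues, and Mtor, at chr4:148448611-148557683 on the plus strand, the longest with 2549. Rptor (chr11:119602905-119899576, plus strand) encodes 1335 residues and Rictor (chr15:6708379-6800401, plus strand) 1708. Akt1 (chr12:112653821-112674884, minus strand) and Rps6kb1 (chr11:86498871-86544805, minus strand) encode 480 and 525 residues. Tsc2 shares 693 bases with Pkd1, Rps6kb1 shares 155 bases with Rnft1, and Angptl7 lies inside Mtor over 5278 bases, in each case on the opposite strand. An antisense gene, Rptoros, overlaps Rptor over 13554 bases. These overlaps are of whole gene spans, introns included, whereas RNA reads were counted on transcripts. Overlap of exons was not measured. Whether counting used the strand is not given in the sources used here. Where exons overlap, a contribution of these neighbours to the RNA counts of Tsc2, Mtor, Rptor and Rps6kb1 cannot be told apart from the genes' own reads.

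The first 20 bases of the annotated RefSeq transcripts (GRCm38.p6) are shown for 4 members and for Rps6, the ribosomal protein substrate of S6 kinase, because a TOP tract at that place is what mTORC1 is known to act on. Capitals mark the unbroken run of pyrimidines from the first base.

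Rps6 (chr4:86857348-86857367, minus strand): CTCTTTTTCgtgacgcctcc

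Mtor (chr4:148448582-148448601, plus strand): TCCCTggcctagaagacagc

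Rheb (chr5:24842342-24842361, minus strand): CCgcgcccgccgccgtgctc

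Tsc1 (chr2:28641233-28641252, plus strand): agggggaggtgctgcgcgtc

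Tsc2 (chr17:24632608-24632627, minus strand): acgggttgcgcttccggcag

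A start was counted as a TOP pattern where a C at the first base was followed by at least 4 pyrimidines on the transcript strand. Rps6, with a run of 9 pyrimidines, held the pattern. Among the 8 members 0 held it, although Mtor began with 5 pyrimidines that open with a T. Of all 32851 annotated starts, 823 (2.51%) held the pattern. These are letters of annotated starts, and starts used in hippocampus were not measured.

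Total counts ran from 4870813 to 7793244 in the RNA libraries and from 5692064 to 22092434 in the RPF libraries. Pairs of libraries correlated at 0.954 to 0.992 in RNA and at 0.986 to 0.997 in RPF across genes (log2 of depth-scaled counts), a description over genes that share libraries. All 8 markers of pyramidal neurons were detected, with a summed RNA level of 4378 to 7116 TPM (a count per transcript length, scaled to one sum in each library) over the libraries. Most of this sum came from Slc17a7 (basal mean 4394 TPM) and Camk2a (943 TPM), and the other pyramidal markers ran from 35.0 TPM (Grik4) to 123.8 TPM (Wfs1). The 12 markers of neighbouring thalamus summed to 192 to 250 TPM in basal and 213 to 288 TPM in DHPG RNA libraries, and none was at 0 in all libraries. Their basal RNA means were uneven, highest for Calb2 (78.0 TPM), Ntng1 (48.1 TPM) and Slc17a6 (33.2 TPM). They were lowest for Lef1 (0.67 TPM), Shox2 (0.66 TPM) and Gbx2 (0.25 TPM), so the sum rests mainly on few genes.

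The members were compared with each other per length, as TPM: RNA counts over the length of the whole transcript and RPF counts over the coding sequence without its ends. In RNA the AKT kinase gene Akt1 was the highest member at 199.9 ± 13.4 TPM (SD, n = 4 basal libraries), above 92.7% of the genes tested. Rps6kb1 was the lowest at 12.2 ± 5.22 TPM, above 30.4% of them. In RPF the order was another, with the GTPase gene Rheb highest at 379.2 ± 27.3 TPM (SD, n = 5) and Tsc1 lowest at 9.56 ± 0.645 TPM. The median gene tested had 26.3 TPM in RNA and 18.1 TPM in RPF, so that 6 of 8 members lay above the median gene in RNA and 4 of 8 in RPF. The tissue is a mixture of cells, and a level per library cannot tell fewer cells that use a gene from less RNA per cell.

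**Figure D1:**
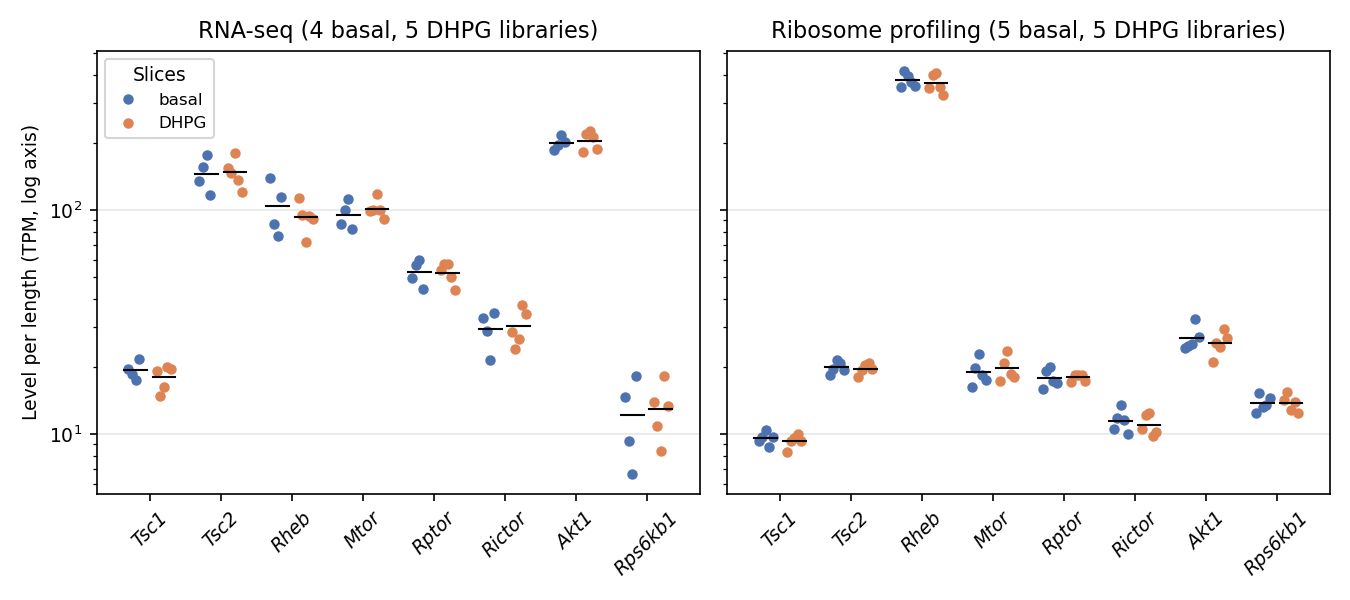
Level per length (TPM, log axis) of the 8 members in every library, RNA-seq on the left and ribosome profiling on the right. Points are libraries, blue for basal and orange for DHPG slices, and bars are group means. Rheb stands above the other 7 members in RPF but not in RNA, and basal and DHPG points of each member overlap.

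For the TSC complex, the inhibitor of Rheb, the subunits differed in RNA. Tsc1 RNA was 19.6, 18.6, 17.4 and 21.6 TPM in basal replicates 1 to 4. Tsc2 RNA was 134.5, 155.4, 175.3 and 116.2 TPM in the same libraries, a mean of 145.3 ± 25.6 TPM. All 4 libraries thus held more Tsc2 than Tsc1 RNA, by 5.37 to 10.1 times (mean 7.67 ± 2.01). Tsc1 RPFs were 9.27, 9.66, 10.5, 8.71 and 9.71 TPM in basal replicates 1 to 5. Tsc2 RPFs were 18.3, 19.4, 21.4, 20.7 and 19.3 TPM. The excess of Tsc2 was smaller in RPF, at 2.08 ± 0.168 times (n = 5, range 1.98 to 2.38), and the ranges of the RNA and RPF excess did not overlap. Tbc1d7, the third subunit, had 59.4 ± 9.77 TPM in RNA and 27.8 ± 1.48 TPM in RPF, so that in RPF Tbc1d7 lay above Tsc2 in each basal library (Tsc2 at 0.649 to 0.799 times Tbc1d7).

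Rheb, the GTPase that the TSC complex inactivates, varied in RNA between 76.9 TPM in replicate 3 and 138.6 TPM in replicate 1, with 86.3 TPM in replicate 2 and 113.8 TPM in replicate 4. Its RPFs were 352.5, 417.9, 395.9, 371.2 and 358.2 TPM in basal replicates 1 to 5. Rheb RPFs exceeded those of Akt1, the next member in the order, by a mean of 14.4 times, and those of Tsc2 by 19.1 ± 1.39 times. In RNA the range of Rheb overlapped that of Mtor and that of Tsc2, and Rheb was at 0.751 ± 0.298 times Tsc2. The paralog Rhebl1 was far lower, at 7.35 ± 1.63 TPM in RNA and 4.83 ± 1.12 TPM in RPF, which put Rheb 14.2 ± 2.67 times above it in RNA and 81.7 ± 18.3 times in RPF.

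For the kinase itself, Mtor RNA was 86.3, 100.4, 111.9 and 82.3 TPM in basal replicates 1 to 4. Rptor, the scaffold of mTORC1, had 49.96, 57.0, 59.7 and 44.3 TPM. Rictor, the scaffold of mTORC2, had 33.1, 28.8, 21.3 and 34.9 TPM. Mtor exceeded Rptor by 1.73 to 1.87 times in RNA, a ratio that varied little, whereas its excess over Rictor ran from 2.36 to 5.25 times. Mtor RPFs were 16.1, 19.8, 22.8, 18.3 and 17.5 TPM in basal replicates 1 to 5. Rptor RPFs were 15.9, 19.2, 19.96, 17.3 and 17.0 TPM. Rictor RPFs were 10.5, 11.7, 13.4, 11.6 and 9.96 TPM. In RPF the kinase and Raptor were thus almost level, at 1.05 ± 0.0504 (n = 5), and both lay above Rictor in every basal library, Mtor by 1.65 ± 0.0906 times and Rptor by 1.57 ± 0.0975 times.

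The order of Mtor and its shared partner Mlst8 differed between the assays, whereas that of the mTORC2 subunits was the same in both. Mlst8, the small subunit of both mTOR complexes, had 15.7 ± 1.25 TPM in RNA, 0.166 ± 0.0235 times Mtor, but 33.4 ± 4.68 TPM in RPF, 1.81 ± 0.428 times Mtor. Deptor, an mTOR-binding inhibitor, had 3.11 ± 0.781 TPM in RNA and 12.6 ± 0.843 TPM in RPF. Akt1s1, which encodes the mTORC1 inhibitor PRAS40, had 40.1 ± 2.25 TPM in RNA and 20.8 ± 1.73 TPM in RPF, which is 0.766 ± 0.0646 times Rptor in RNA and 1.18 ± 0.192 times in RPF. Of the mTORC2 subunits, Mapkap1 was above Rictor, with 50.6 ± 9.33 TPM in RNA and 14.5 ± 1.06 TPM in RPF. Prr5 had 14.9 ± 3.94 TPM in RNA and 7.82 ± 1.05 TPM in RPF. Prr5l was the lowest subunit, with 6.37 ± 1.17 TPM in RNA and 3.21 ± 0.276 TPM in RPF.

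**Figure D2:**
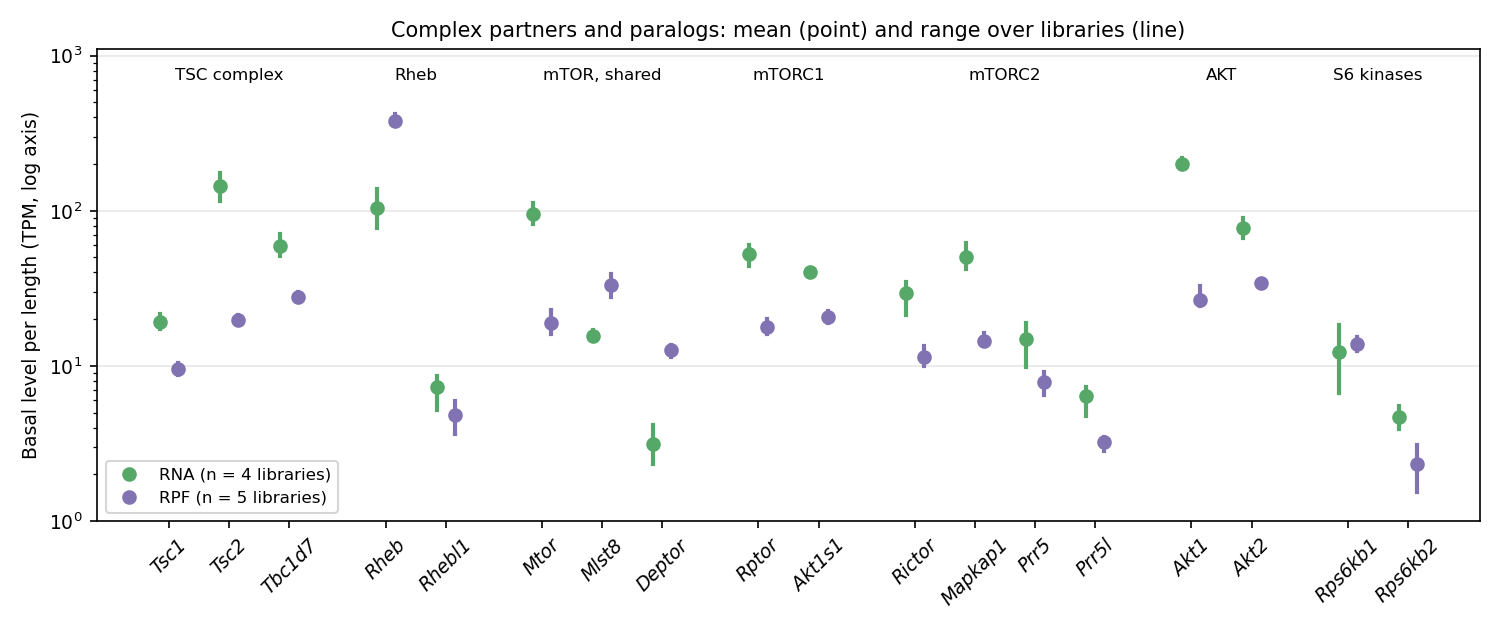
Basal level per length (TPM, log axis) of the members beside their complex partners and paralogs, grouped by complex. Points are means over 4 RNA (green) and 5 RPF (purple) libraries and lines span the lowest to the highest library. RPF lies above RNA for Rheb, Mlst8, Deptor and, narrowly, Rps6kb1, and below it for the other genes.

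Akt1 RNA was 185.3, 195.4, 217.3 and 201.6 TPM in basal replicates 1 to 4, above its paralog Akt2 in each. Akt1 RPFs were 24.2, 24.8, 25.1, 32.7 and 27.0 TPM in replicates 1 to 5, with replicate 4 the highest. Akt2 had 77.7 ± 10.1 TPM in RNA and 33.98 ± 1.90 TPM in RPF. The order of these kinase genes was therefore turned between the assays: Akt1 was at 2.59 ± 0.287 times Akt2 in RNA and at 0.787 ± 0.0724 times Akt2 in RPF. In no basal RPF library did Akt1 exceed Akt2, the highest ratio being 0.910.

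Rps6kb1, the S6 kinase that mTORC1 phosphorylates, spread most in RNA, with 14.6, 9.31, 6.64 and 18.2 TPM in basal replicates 1 to 4. Its RPFs were 12.4, 15.2, 13.2, 13.5 and 14.5 TPM in replicates 1 to 5 and stayed within a narrow band. The paralog Rps6kb2 was lower in each library, with 4.67 ± 0.783 TPM in RNA and 2.33 ± 0.586 TPM in RPF. Of the downstream translation genes, Rps6 had 1318 ± 172.0 TPM in RNA and 369.3 ± 24.3 TPM in RPF. Eif4ebp2, the main 4E-BP of brain, had 3.04 ± 0.220 TPM in RNA and 28.4 ± 3.81 TPM in RPF. Eif4ebp1 had 1.22 ± 0.225 TPM in RNA from 4 to 7 counts a library, too few to be tested, and 3.98 ± 1.65 TPM in RPF.

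Not all neighbours in these orders were apart beyond their spread. In RNA the order was Akt1, Tsc2, Rheb, Mtor, Rptor, Rictor, Tsc1 and Rps6kb1, and the ranges overlapped between Tsc2 and Rheb, Rheb and Mtor, Rictor and Tsc1, and Tsc1 and Rps6kb1. In RPF it was Rheb, Akt1, Tsc2, Mtor, Rptor, Rps6kb1, Rictor and Tsc1, with overlap between Tsc2 and Mtor, Mtor and Rptor, Rps6kb1 and Rictor, and Rictor and Tsc1. A design of 4 or 5 libraries cannot bring an exact paired permutation test of such neighbours under 0.05, and none was made. The orders also depended on the transcript model. Lengths were also taken as the median over a gene's coding transcripts, in place of the transcript with the longest coding sequence. Mtor (111.9 TPM) then came before Tsc2 (98.1 TPM) in RNA. The median of the Mtor models is 4783.5 bases beside 8564 for the longest. Rps6kb1 (3250 bases beside 5531) then came before Tsc1 in RNA and was not the lowest. In RPF, Mtor, Rptor and Rps6kb1 then came before Tsc2, with median coding lengths of 4210.5, 2261.5 and 951 bases beside 5227.5.

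The density of ribosomes per length of coding sequence was then compared between genes, relative to their RNA level. It was taken as the ratio of RPF to RNA per length in basal slices, in log2 and relative to the centre of all genes tested. Because RPFs are divided by coding length (495 counted bases in Rheb, 7590 in Mtor), the ratio is not a number of ribosomes per mRNA. By edgeR's quasi-likelihood test over replicates 1 to 4, which have both assays, 8 of 8 members lay off the centre at an adjusted p under 0.05, where 78.8% of the 12833 genes tested did. With a background of that size, being off the centre sets the members apart from few genes, so the side and size of each ratio are given. The median absolute ratio was 1.41 over the members and 0.99 over all genes tested. The SD of the replicate means was 1.64 over the members and 1.56 over all genes. Whether side or size sets the members apart was not tested. Of the members, 2 lay above the centre and 6 below, and their median was -0.91 beside -0.01 over all genes tested. Over all genes, 39.0% were called above the centre and 39.7% below.

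Rheb had the highest ratio of the 8, at 2.44 (SE 0.18, 95% interval 2.03 to 2.84, edgeR adjusted p = 2.85e-06), above 92.7% of the genes tested. Its values in replicates 1 to 4 were 1.94, 2.80, 2.76 and 2.26, all well above 0. Rps6kb1 was the other member above the centre, at 0.77 (SE 0.23, edgeR adjusted p = 0.0135), with replicate values of 0.37, 1.23, 1.37 and 0.13. The spread of Rps6kb1 came from its RNA values, and its sign depended on the length term: without a length offset the difference was -0.06 (edgeR adjusted p = 0.822), the only member to change side.

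Akt1 and Tsc2 lay at the other end. The ratio of Akt1 was -2.40 (SE 0.13, 95% interval -2.71 to -2.09), lower than all but 4.01% of the genes tested, with replicate values of -2.33, -2.45, -2.71 and -2.06. Tsc2 was at -2.34 (SE 0.14), with -2.27, -2.47, -2.63 and -1.93. These neighbours in the order overlapped and did not differ beyond their spread. Mtor followed at -1.79 (SE 0.11), with -1.81, -1.81, -1.90 and -1.61 in the replicates.

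The remaining members were nearer the centre. Rptor was at -1.03 (SE 0.11), Rictor at -0.78 (SE 0.16) and Tsc1 at -0.50 (SE 0.13, edgeR adjusted p = 0.00558). In replicates 1 to 4 Rptor had -1.05, -1.05, -1.18 and -0.79, Rictor -1.04, -0.77, -0.26 and -1.02, and Tsc1 -0.47, -0.42, -0.33 and -0.74. The ranges of Tsc1 and Rictor and those of Rictor and Rptor overlapped, with 3 of 4 replicates in the order given for each neighbouring pair. Within complexes the ratios were unlike. The 3 TSC subunits were below the centre, Tbc1d7 at -0.60. Of the subunits that both mTOR complexes hold, Mtor was below the centre and Mlst8 (1.57) and Deptor (2.57) above it. Akt1s1 was at -0.47, and the mTORC2 subunits Mapkap1, Prr5 and Prr5l at -1.27, -0.43 and -0.49. Rhebl1 was at 0.01 (edgeR adjusted p = 0.983), Akt2 at -0.70, and Rps6kb2 at -0.61.

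**Figure D3:**
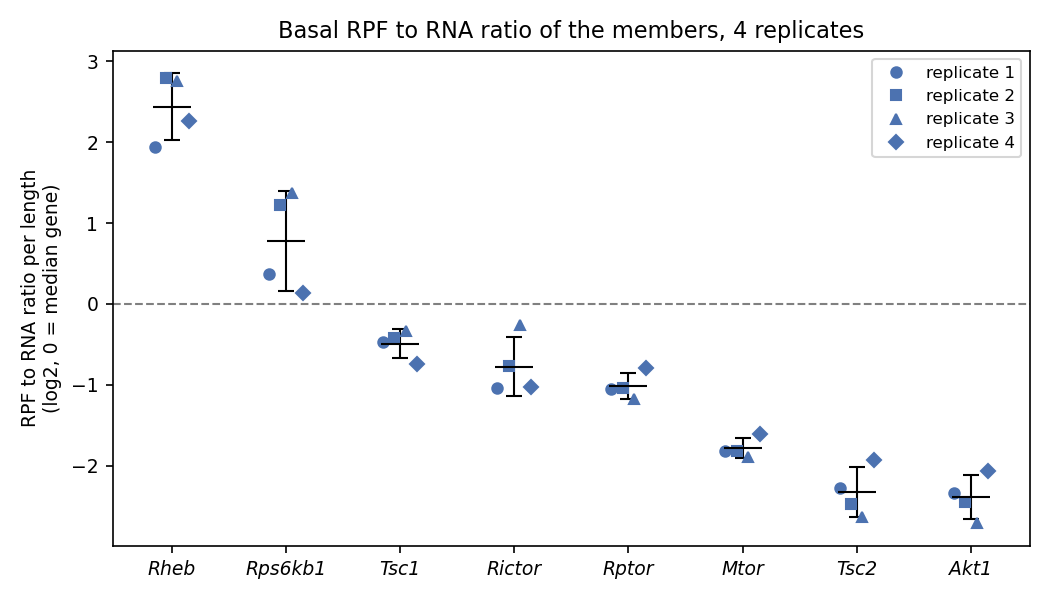
Basal ratio of RPF to RNA per length (log2, 0 is the median gene) of the 8 members in order of their mean. Symbols are replicates 1 to 4, the long bar is the mean and the whiskers are 1 SD. Rheb and Rps6kb1 lie above 0 in 4 of 4 replicates and the other 6 members below 0 in 4 of 4.

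Features of the transcripts went along with this order, as a description over genes that share the same libraries. Rheb, with a coding sequence of 555 bases that makes up 31.1% of its transcript, and Rps6kb1, with 28.5%, had the smallest coding shares among the members. Tsc2 (96.9%) and Mtor (89.3%) had the largest, and Akt1 lay between at 53.6%. The rank correlation of the ratio with the coding share was -0.74 over the 8 members, -0.69 over 77 genes of a wider pathway list and -0.67 over 12832 genes tested. With GC content it was -0.81, -0.49 and -0.43, and with coding length -0.45, -0.60 and -0.54. In the ratio RPFs are divided by coding length and RNA by transcript length, so coding length and coding share are themselves terms of it. Negative correlations with these 2 features can arise from the length terms alone, to an extent that was not measured. The 1221 genes with a coding sequence no longer than that of Rheb had a median ratio of 1.85, below Rheb's 2.44. The 583 genes with one at least as long as that of Rictor had a median of -1.45, so that Rictor (-0.77 as a mean over replicates) was above and Mtor and Tsc2 below this median. With median lengths over a gene's coding transcripts as the transcript model, the members stayed off the centre, and the size of the shifts is not given here. The part that transcript structure has in the ratios was not tested.

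RNA libraries differed from each other in a way that touched the members unequally. Among basal RNA libraries, Tsc2, Mtor, Rptor and Akt1 were highest in replicate 3, whereas Tsc1, Rictor, Rheb and Rps6kb1 were lowest there. From replicate 4 to replicate 3 the RNA level moved by 0.59 on the log2 scale for Tsc2, 0.44 for Mtor, 0.43 for Rptor and 0.11 for Akt1. It moved by -0.31 for Tsc1, -0.57 for Rheb, -0.71 for Rictor and -1.46 for Rps6kb1. This pair of replicates, chosen after its values were seen, gave the same side for each member in DHPG slices, from 0.40 for Tsc2 to -1.11 for Rps6kb1. The sign of these differences went with GC content, which is 54.2% to 59.7% in the first 4 genes and 39.2% to 51.7% in the others. The rank correlation of the basal difference with GC content was 0.79 over the members, 0.79 over 77 genes of the pathway list and 0.67 over 12879 genes.

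In RPF the same replicates did not separate the members in this manner (rank correlation -0.17 over the 8 members and -0.30 over 13154 genes in basal slices). Over the pathway list it was -0.36. In DHPG slices it was -0.21 over the members, -0.53 over the list and -0.43 over all genes tested. The RPF differences thus went with GC content with the opposite sign to RNA. Over replicates 1 to 4 the highest basal RNA library exceeded the lowest by 2.75 times for Rps6kb1 and by 1.17 times for Akt1, beside a median of 1.49 over all genes tested. In RPF the same measure was 1.22 for Rps6kb1 and 1.35 for Akt1, with a median of 1.26. Rps6kb1 RNA was among the more variable genes (coefficient of variation 42.7%, higher than for 94.8% of genes), and its RPF was not (8.71%, higher than for 38.2%).

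**Figure D4:**
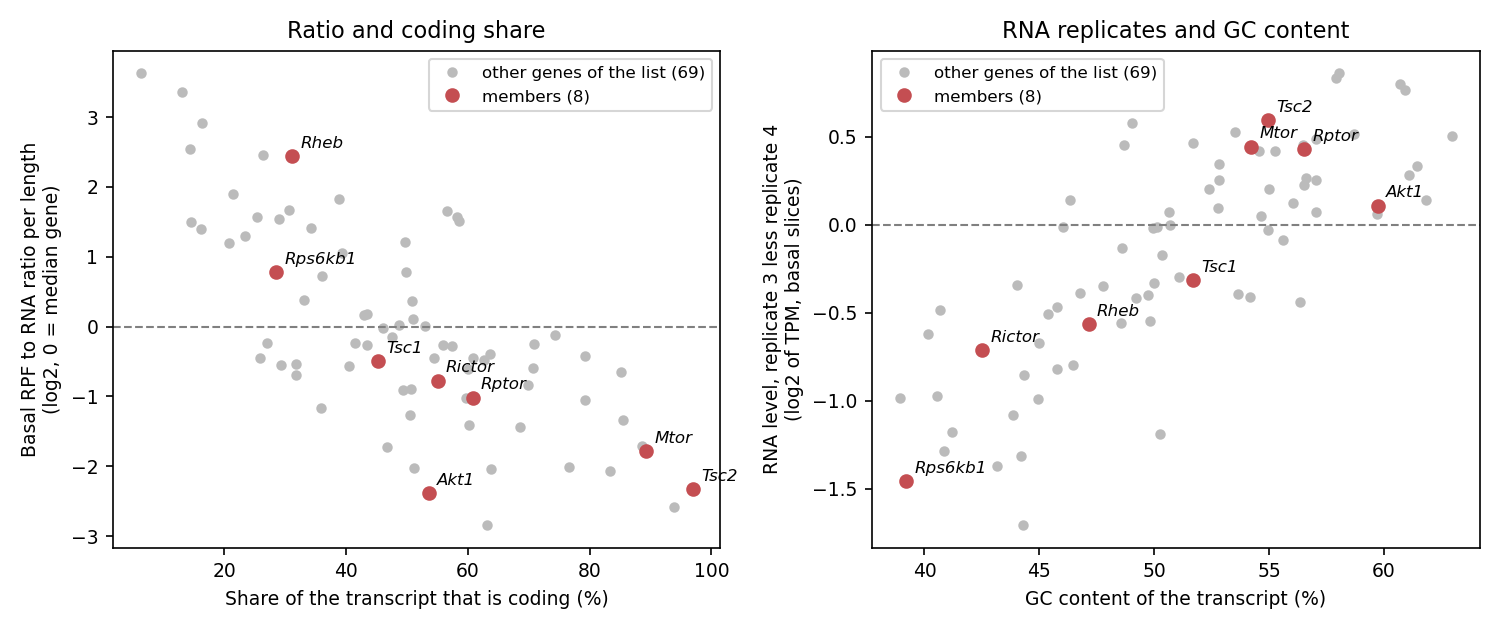
Left, basal ratio of RPF to RNA (log2, 0 is the median gene) against the share of the transcript that is coding (%). Right, difference of basal RNA level between replicates 3 and 4 (log2 of TPM) against GC content (%). Red points are the 8 members and grey points 69 other genes of the pathway list. Ratios fall as the coding share rises (rank correlation -0.69 over the 77 genes), and the difference between replicates rises with GC content (0.79). The coding share is built from the lengths that also enter the ratio.

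Stimulation of mGluR1/5 was then compared with basal slices, to ask whether 5 min of DHPG moves the mRNA or the ribosomes of the pathway itself. None of the members was called. In RNA 0 of 8 members passed edgeR's test at an adjusted p under 0.01, where 0.00773% of 12935 genes did, which is 1 gene. In RPF 0 of 8 passed at an adjusted p under 0.05, where 0.220% of 13208 genes (29) did. Translation efficiency (TE), the change of RPF less the change of RNA, was tested as the interaction of assay and treatment, and 0 of 8 members passed, where 0% of 13320 genes did. At an unadjusted p under 0.05 the members numbered 0 of 8 in RNA (8.02% of all genes), 1 of 8 in RPF (10.8%) and 0 of 8 in TE (6.54%). DESeq2 with the same block called 0 of 8 in each.

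Mtor was the member at the smallest p in both assays. In RPF, normalised counts of Mtor, scaled by TMM to one library size (CPM), were 119.8, 145.5, 165.4, 130.9 and 127.0 in basal replicates 1 to 5 and 130.0, 155.5, 173.2, 134.3 and 132.7 in their DHPG partners. The groups overlapped, but the DHPG slice was higher in 5 of 5 pairs, by 0.04 to 0.12 on the log2 scale. The fitted change was 5.30% (log2 0.07, SE 0.03, 95% interval 0.50% to 10.3%). Its p was 0.031 before adjustment and 0.409 after it in edgeR, so that Mtor failed the correction. In RNA Mtor was 262.7, 320.0, 374.3 and 248.6 CPM in basal replicates 1 to 4 and 304.2, 325.8, 388.4 and 294.6 CPM in DHPG, with 280.1 CPM in the DHPG library of replicate 5, which has no basal RNA partner. Here too 4 of 4 pairs were higher, by 0.03 to 0.24, with a fitted log2 change of 0.13 (SE 0.07, edgeR adjusted p = 0.636) and groups that overlapped. With both assays higher, the TE of Mtor was at -0.06 (95% interval -0.20 to 0.08).

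Tsc1 RNA went the other way. It was 53.6, 53.4, 52.3 and 58.7 CPM in basal replicates 1 to 4 and 52.9, 43.5, 47.9 and 53.0 CPM in DHPG (54.1 in unpaired replicate 5), lower in 4 of 4 pairs, by 0.02 to 0.29. The fitted log2 change of -0.14 (SE 0.08, 95% interval -0.31 to 0.03) was not called (edgeR adjusted p = 0.672). Tsc1 RPFs were 31.0, 32.0, 34.3, 28.1 and 31.8 CPM in basal and 28.1, 31.5, 31.8, 32.8 and 31.1 CPM in DHPG replicates. They were lower in 4 of 5 pairs and higher in replicate 4, and the fitted log2 change was -0.02 (SE 0.05).

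Of the 8 fitted RPF changes, that of Tsc2 was nearest to 0. They were 96.2, 101.0, 109.9, 104.7 and 99.0 CPM in basal replicates 1 to 5 and 95.8, 102.0, 105.3, 106.9 and 101.5 CPM in DHPG. The 95% interval of the Tsc2 RPF change was -4.94% to 5.11%, and pairs differed by -0.06 to 0.03 on the log2 scale, with 3 of 5 higher. In RNA Tsc2 was 267.8, 323.7, 383.2 and 229.3 CPM in basal and 308.7, 310.6, 386.3 and 262.6 CPM in DHPG replicates 1 to 4 (242.6 in unpaired replicate 5), so that both groups spread over the same range. The fitted RNA log2 change of Tsc2 was 0.09 (SE 0.07, edgeR adjusted p = 0.778), with 3 of 4 pairs higher. The ratio of Tsc2 to Tsc1 in RPF was 2.10 ± 0.0424 (SD, n = 5) in DHPG slices beside 2.08 ± 0.168 in basal ones.

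Rheb RNA was 87.9, 57.3, 53.6 and 71.6 CPM in basal and 72.1, 64.3, 49.5 and 57.9 CPM in DHPG replicates 1 to 4 (58.7 in unpaired replicate 5). It was lower in 3 of 4 pairs and higher in replicate 2, with a fitted log2 change of -0.15 (SE 0.08, edgeR adjusted p = 0.662). Rheb RPFs were 170.6, 200.3, 187.6, 173.2 and 169.6 CPM in basal and 171.3, 195.6, 196.2, 167.9 and 157.2 CPM in DHPG. The fitted RPF change of -0.02 had an interval of -5.92% to 3.17%, narrower than in RNA (-20.1% to 1.56%).

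For the other members the fitted RNA changes were 0.06 for Rptor, -0.01 for Rictor, 0.06 for Akt1 and 0.08 for Rps6kb1, with SEs of 0.07 to 0.10. Pairs lay on both sides of 0 for each of these 4 genes. The RPF changes were 0.01 for Rptor, -0.03 for Rictor and -0.03 for Akt1, and that of Rps6kb1 had an interval of -8.89% to 8.99%. The widest RPF interval among the members was that of Rps6kb1 and the narrowest those of Rheb and Mtor, which have the highest counts. In TE, Tsc1 was at 0.12 and Rheb at 0.13, and Tsc2 (-0.09), Akt1 (-0.09), Rps6kb1 (-0.08), Rptor (-0.04) and Rictor (-0.02) at the other side of 0. The outermost edges of the 95% intervals in TE were -19.5% (Rps6kb1) and 23.6% (Rheb), and the intervals differed by gene, that of Tsc2 running from -14.8% to 3.90%.

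**Figure D5:**
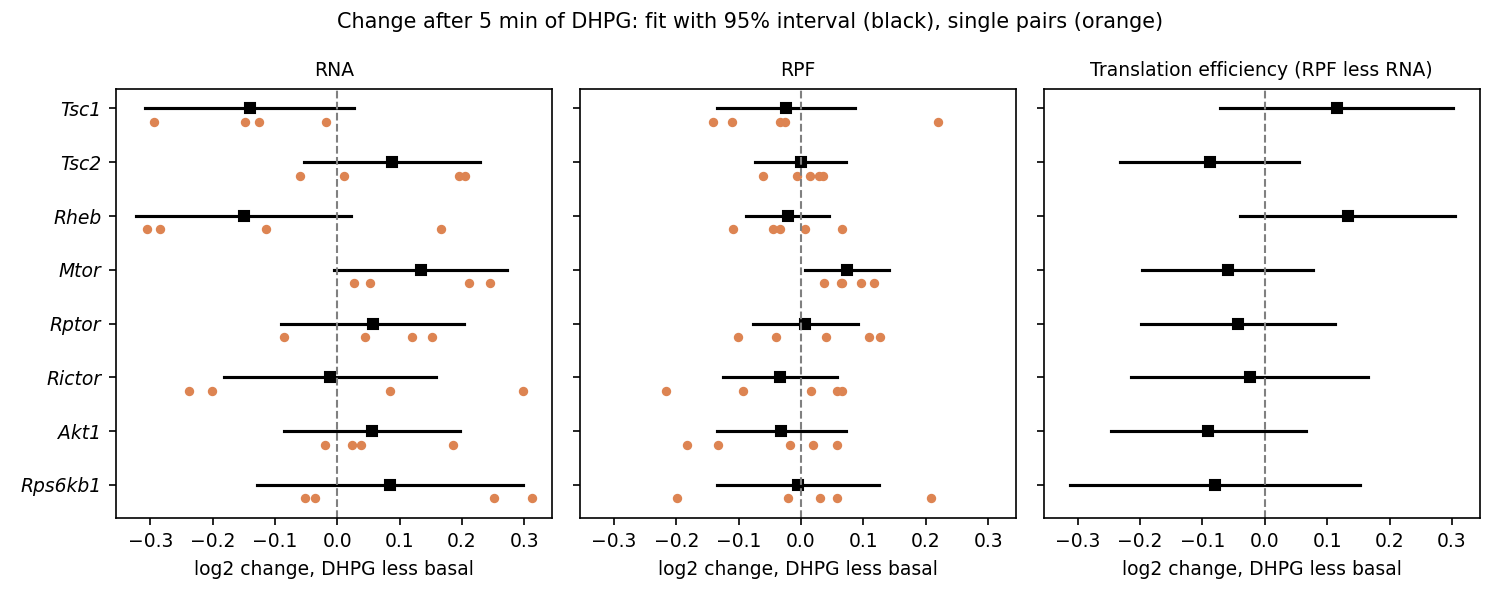
Change after 5 min of DHPG less basal (log2) for the 8 members in RNA, RPF and TE. Black squares and lines are the fit with its 95% interval, and orange points are single replicate pairs (4 in RNA, 5 in RPF). Only the RPF interval of Mtor leaves out 0 (0.01 to 0.14), and after adjustment over all genes Mtor was not called.

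The wider list of 78 pathway genes, the members included, held no called gene either. In RNA 0 of 77 tested genes were called, with 39 at the higher side (50.6%, beside 52.1% of all genes) and a median log2 change of 0.00. In RPF 0 of 78 were called, with 32 at the higher side (41.0%, beside 51.4%) and a median of -0.02. In TE 0 of 77 were called, with a median of -0.02. Unadjusted p values under 0.05 numbered 9 in RNA (4 higher, 5 lower), 12 in RPF (3 higher, 9 lower) and 6 in TE, which is 11.7%, 15.4% and 7.79% of the list beside 8.02%, 10.8% and 6.54% of all genes.

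Among the genes of the list with the smallest p, none was called. In RNA these were Ddit4l, a stress-induced inhibitor of mTORC1, at -0.41 (SE 0.13, edgeR adjusted p = 0.536, lower in 4 of 4 pairs), the Rag GTPase gene Rragb at -0.22, also lower in 4 of 4, and Agap2, an activator of PI3K, at 0.18. In RPF the PI3K catalytic subunit Pik3ca was at -0.16 (SE 0.06, edgeR adjusted p = 0.274), lower in 5 of 5 pairs. In TE they were Prkag1, a subunit of the energy sensor AMPK, at 0.30, Rragb at 0.20 and Eef2k, the kinase of elongation factor 2, at -0.27. Batch correction with ComBat before DESeq2, the treatment of the counts that the study's methods describe, called 2 genes of the list in RNA, Agap2 (0.17, DESeq2 adjusted p = 0.00462) and Rragb (-0.23, DESeq2 adjusted p = 0.00784). It called 3 in RPF, all lower, among them the initiation factor genes Eif4b (-0.09, DESeq2 adjusted p = 0.0474) and Eif4g1 (-0.06, DESeq2 adjusted p = 0.0434). No member was among them, and Mtor had a DESeq2 adjusted p of 0.103 there.

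Markers of several cell types and of neighbouring tissue were compared in the same libraries. Of 11 thalamus markers tested in RPF, 10 were higher in DHPG slices, with a median log2 change of 0.23, and 5 were called. In RNA 8 of 9 were higher with a median of 0.30, and 1 was called higher, the only gene called in RNA. Summed over the 12 markers, RPF levels were 259 to 334 TPM in basal and 276 to 364 TPM in DHPG libraries, and none was at 0 in all libraries. Oligodendrocyte markers were higher for 6 of 6 genes in RNA (median 0.16) and for 5 of 6 in RPF (median 0.09), 1 of them called. Astrocyte markers were higher for 4 of 5 genes in RNA (median 0.03) and 5 of 5 in RPF (median 0.05), and microglia markers for 3 of 5 in RNA (median 0.0015) and 5 of 5 in RPF (median 0.04). Other sets lay lower: interneuron markers were higher for 0 of 5 genes in RNA (median -0.10) and 2 of 5 in RPF (median -0.00015), with 1 called higher, and endothelial markers for 1 of 4 in RNA (median -0.10) and 0 of 4 in RPF (median -0.13). Pyramidal neuron markers were higher for 7 of 8 genes in RNA (median 0.09) and 4 of 8 in RPF (median -0.01), and dentate granule markers for 2 of 3 in RNA (median 0.03) and 1 of 3 in RPF (median -0.01). Apart from the thalamus, oligodendrocyte and interneuron markers, no marker was called. The part of any of these in the values of Mtor and Tsc1 was not tested.

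For 3 members the genes with the most similar RPF pattern were looked up among 13207 others, as the correlation of log2 CPM over the 10 RPF libraries after the mean of each replicate was taken off. Such values rest on 5 differences between paired libraries, and the highest of so many genes are high by selection, so they are a description without a test. Nearest to Tsc1 were Rpa1 (0.991), Edc3 (0.987) and Rerg (0.984). Nearest to Tsc2 were Fscn1 (0.988), Hexim1 (0.987) and Fancf (0.985), and nearest to Mtor were Scn3b (0.995), Alg2 (0.994) and Aig1 (0.993). Members were not near each other by this measure: Tsc1 and Tsc2 correlated at 0.57, and Tsc2 ranked 2084 among the genes compared with Tsc1. Rheb and Tsc2 were at -0.89.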

How the data were processed

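RNA-seq (9 libraries) and ribosome profiling (10 libraries) of wild-type hippocampal slices were analysed. Per the methods, the authors quantified genes with RSEM, and the deposited expected counts are whole numbers, made after adapter removal with cutadapt, removal of rRNA and tRNA reads with Bowtie2, mapping to mm10 with TopHat2 and collapse of duplicates by molecular identifier. RNA reads were counted on whole transcripts and RPFs on coding sequences without 30 bases at each end. Another 12 columns of the tables, which match no sample, were not used. Reads that mapped to more than one place had been dropped, which lowers counts of near-identical paralogs.

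Counts were tested with edgeR 4.0.16 (R 4.3.3; quasi-likelihood F test, TMM, filterByExpr, Benjamini-Hochberg over all genes tested), with the replicate number as a block. In the TE model the block was the replicate number within each assay, and the spread of a gene was shared by both assays. RNA and RPFs of one lysate thus entered the TE model as independent libraries, and its SEs and intervals leave this link out. Each adjusted p is from edgeR unless DESeq2 1.42.0 is named. Thresholds were 0.01 for RNA and 0.05 for RPF, TE and the basal ratio. The basal ratio had log lengths as offsets (GENCODE M21, the transcript with the longest coding sequence; 98.9% of genes had one), with TMM on counts per kilobase. Ratios per replicate used TPM plus 0.1. CPM values were scaled by TMM, with a prior count of 2 on the log2 scale. Intervals are at 95%. Alternatives used limma 3.58.1, DESeq2 and sva 3.50.0. Scripts were tested on simulated data.

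Samples were paired by replicate number. Deviations of same-numbered basal and DHPG libraries from their group means correlated at 0.308 to 0.741 in RNA (4 pairs) and 0.259 to 0.523 in RPF (5 pairs). Libraries of different numbers were not compared in this way, so these values alone do not establish the pairing. The DHPG RNA library of replicate 5 had no basal partner and so added nothing to the treatment effect in the blocked fit. The paper calls the replicates batches and corrected its counts for batch, but nothing states that they came from separate days. With the block, p values of the DHPG tests measure the spread of the differences between basal and DHPG pools of one number. Where these pools held different mice, differences between animals are part of that spread and cannot be told apart. Named genes were the members, their complex partners, paralogs, Eif4ebp1, Eif4ebp2 and Rps6 by level, any gene of the pathway list past the threshold, the 3 other genes of the list with the smallest p in each of RNA, RPF and TE, and the 3 with the RPF pattern most like Tsc1, Tsc2 and Mtor. The lowest and highest gene of a role were named after their values were seen. Some genes that these rules name are not reported here. Members, lists and markers were chosen with earlier results of these data known.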

Additional observations from a re-analysis of the deposited data

Results flagged for a closer look

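Each group of 4 or 5 libraries was checked for a library far from the others by Dixon's test at its 95% limit, over the levels, the ratios of RPF to RNA and the paired DHPG differences of the 8 members. Of 64 groups checked, 0 held such a library, where chance alone gives about 1 in 20.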

How the results depend on the processing

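No member passed the threshold in RNA, RPF or TE under any alternative tried: size factors of DESeq2 in edgeR, both other filters on low counts, no replicate block, DESeq2, ComBat before DESeq2 or limma, a GC and length correction, the other adjusted p threshold, and each replicate left out. In the basal ratio 8 of 8 members stayed off the centre under each alternative except that without a length offset, where 7 of 8 did. Directions of small changes were less firm. Without the replicate block the pairing by replicate number was given up, and the log2 change became -0.016 for Rptor, 0.030 for Rictor and 0.052 for Pik3ca in RNA, 0.0016 for Tsc2 and 0.0054 for Rps6kb1 in RPF, and 0.032 for Rptor in TE. With the GC and length trend removed, Rptor was at -0.016 in RNA and -0.013 in RPF, Rps6kb1 at 0.0025 and Rragb at 0.0012 in RPF. DESeq2 with the block gave 0.00064 for Pik3ca in RNA, and 0.00065 for Tsc2 and 0.0033 for Rps6kb1 in RPF. ComBat and DESeq2 gave 0.0011 for Pik3ca in RNA, and called 2 genes of the pathway list in RNA and 3 in RPF. Without a length offset the basal ratio of Rps6kb1 was -0.062. These values lie on the other side of 0 from those in the report, and the cause was not tested.

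With each replicate left out in turn, changes that crossed 0 ran from -0.078 to 0.032 (Pik3ca) and -0.11 to 0.055 (Rictor) in RNA. In RPF they ran from -0.066 to 0.0024 (Rictor), -0.033 to 0.042 (Rps6kb1), -0.016 to 0.045 (Rptor), -0.038 to 0.00042 (Rragb), -0.072 to 0.010 (Tsc1) and -0.010 to 0.020 (Tsc2). In TE Rictor ran from -0.12 to 0.083. Genes of the pathway list called in TE numbered 0 to 1, the 1 being Prkag1 without replicate 2 (0.45, edgeR adjusted p = 0.0335). Mtor in RPF stayed between 0.07 and 0.08.

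Counts over all genes moved more. RNA calls (1) became 110 with ComBat and DESeq2, 7 with no filter on low counts, 0 with at least 10 counts in each library, 0 with DESeq2 and 0 without the block, and 0 to 22 with a replicate left out (22 without replicate 2, 0 without replicate 3). RPF calls (29) became 427, 96, 36, 38 and 0 in the same order, 8 at a threshold of 0.01, and 3 to 71 with a replicate left out (71 without replicate 3, 50 without 5, 10 without 1 and 3 without 2). TE calls (0) became 6 with no filter and 0 to 8 with a replicate left out, 8 of them without replicate 2. RNA-seq held fewer pairs and less depth than ribosome profiling, and its intervals are wider.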

Other observations

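Outside the members, the basal ratio of RPF to RNA is given here for genes at the ends of 4 roles of the pathway list, beside 39.0% of all genes tested called above the centre and 39.7% below. Differences between roles were not tested. Genes of PI3K signalling ran from Agap2 at -2.85 to the regulatory subunit Pik3r3 at 2.43, with 4 of 11 called above the centre and 7 below. Amino acid sensing was highest in the Ragulator subunit Lamtor2 at 1.65, with 7 of 24 called above and 9 below. Energy and stress inputs ran from Stk11, the kinase upstream of AMPK, at -2.04 to the AMPK subunit Prkab2 at 2.93, with 6 of 9 called above and 2 below. Translation targets ran from Eef2 at -2.08 to the 4E-BP gene Eif4ebp2 at 3.66, with 4 of 9 called above and 3 below. Over the whole list 62 of 77 genes were called in edgeR, beside 78.8% of all genes tested.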
